A study of Mus musculus with 15 samples.

Results

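The genes described here encode subunits of the transcription factor NF-kappaB and the inhibitors that hold it back or damp the signals that turn it on. There are 10 of them among the 19938 genes measured: the subunit genes Rel, Rela, Relb and Nfkb2, the IkappaB genes Nfkbia, Nfkbie and Nfkbid, and the signal regulators Tnfaip3, Traf1 and Birc3. They were chosen by gene symbol, among array probe sets that the platform annotation pairs with exactly 1 gene, and each is read by 1 probe set.

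RNA of germinal centre B cells from mouse spleen was read on whole-transcript microarrays. There were 3 arrays of high-affinity light zone cells (Lzhi), 4 of low-affinity light zone cells (Lzlo), 4 of high-affinity dark zone cells (Dzhi) and 4 of low-affinity dark zone cells (Dzlo). All 4 groups were female SwHEL B cells with the CD45.1 marker, with an engineered receptor for hen egg lysozyme, placed in C57BL/6J hosts (CD45.2) that received sheep red blood cells coupled to the lysozyme mutant HEL3x. Cells were taken 10 days later by a gate for CD45.1+ CD45.2- IgG1+ CD38 low cells, with light zone cells high in CD86 and low in CXCR4 and dark zone cells the opposite. How high-affinity and low-affinity cells were told apart is not described here. Because SwHEL cells share that receptor they do not stand for a natural repertoire, and the ages of the mice are not stated in the labels.

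NF-kappaB is a family of dimers that wait in the cytoplasm, bound by IkappaB proteins. Signals from the B cell receptor, CD40 or Toll-like receptors lead to destruction of the IkappaB protein, and the freed dimer enters the nucleus and turns on its targets. Several of those targets encode its own inhibitors, among them Nfkbia and Tnfaip3, which makes a negative feedback loop. In the germinal centre, the light zone is where B cells meet antigen on follicular dendritic cells and help from T cells, and the dark zone is where they divide and mutate their receptors.

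Values are log2 values from RMA, so a difference of 1 is a factor of 2, and array medians lay between 5.57 and 5.74. A code in the sample descriptions takes 5 forms, read here as 4 experiments A to D. The form for experiment B is not the same in the light zone as in the dark zone, and experiment D has no Lzhi array. On the first principal component of all genes, which held 37.4% of the variance, 5 arrays stood apart with scores of 18.1 to 66.7: the Lzhi and Lzlo arrays of experiment C, the Lzlo array of experiment D, the Dzhi array of experiment C and the Dzlo array of experiment D. The other 10 arrays scored between -33.7 and 0.3. Their light zone arrays are all of experiments A and B, while their dark zone arrays come from experiments A to D. Fits without the arrays that stand apart thus do not hold the same experiments in both zones. Lists of B cell markers (5 of 6 measured) and germinal centre markers (6 of 8) had mean levels of 10.63 to 11.15 and 9.57 to 10.34 on every array. The germinal centre mean was 9.57 to 10.05 in the 5 arrays that stand apart and 10.06 to 10.34 in the other 10. The sort markers followed the gate, which is no finding: Cd86 differed by 1.04 and Cxcr4 by -0.69, light zone minus dark zone. The mean level of 10 neutrophil markers was 9.42 in the Lzlo array of experiment D and 8.17 in the Dzlo array of experiment D, against 5.23 to 6.83 in the others. The mean of 8 T cell markers was 7.02 in the Lzlo array of experiment D and 6.35 in that of experiment C, against 4.91 to 5.85 in the others. The part of these cells in the results below was not tested. In bulk RNA, fewer cells of a type and less RNA per cell cannot be told apart.

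Several of these genes carry the DNA letters that NF-kappaB binds close to their own start sites, and the sequences are shown because such letters are where the factor can act on genes of its own pathway. The motif searched was the NF-kappaB consensus of 10 letters: 3 G, a purine, 2 free bases, 2 pyrimidines and 2 C, on both strands, in the 250 bases before each start in RefSeq (GRCm38.p6). RefSeq start sites were found for 9 of the 10 genes, and 6 of those 9 had a match, against 8.23% of 27025 genes. Counted by start site, 8 of 14 had a match, against 7.25% of 32851. The genes were chosen as members of this pathway, so these shares are a description. Nfkbia is shown with all 250 bases and has 1 match, 29 to 20 bases before its start (chr12:55492648-55492897, minus strand). The others are shown with up to 20 bases on each side of the match. Capitals mark the match, and a run of 11 capitals holds overlapping matches.
Nfkbia: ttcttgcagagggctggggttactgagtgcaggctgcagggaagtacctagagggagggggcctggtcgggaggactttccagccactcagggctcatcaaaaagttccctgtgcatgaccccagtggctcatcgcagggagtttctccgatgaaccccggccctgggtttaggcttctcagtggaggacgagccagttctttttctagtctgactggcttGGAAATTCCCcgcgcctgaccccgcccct
Nfkbid: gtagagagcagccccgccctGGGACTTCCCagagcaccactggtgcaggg
Nfkbie: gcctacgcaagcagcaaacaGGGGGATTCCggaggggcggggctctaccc
Tnfaip3: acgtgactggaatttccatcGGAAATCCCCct
Rel: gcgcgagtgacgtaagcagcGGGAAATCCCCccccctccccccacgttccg
Nfkb2: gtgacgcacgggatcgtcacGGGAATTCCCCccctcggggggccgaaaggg

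The Nfkbid window lies at chr7:30422160-30422209 on the plus strand, with the match 226 to 217 bases before 1 of its RefSeq start sites. That of Nfkbie is chr17:45555574-45555623 (plus strand, match 106 to 97 bases before the start). The Tnfaip3 window, chr10:19015411-19015442 on the minus strand, has its match 12 to 3 bases before 1 of its RefSeq start sites. In Rel (chr11:23771031-23771081, minus strand) the overlapping matches run over the bases 92 to 82 before the start. In Nfkb2 (chr19:46304678-46304728, plus strand) they run over the bases 39 to 29 before 1 of its RefSeq start sites. Not every start site of Nfkbid and Tnfaip3 had a match. Further matches were found in the windows of Nfkbid, Tnfaip3 and Nfkb2. The windows of Rela, Traf1 and Birc3 held none of these letters, which says nothing about binding. A match describes the letters and not a site that was shown to be bound.

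The zone comparison took light zone over dark zone cells, with both affinities together. Of the 10 genes, only Nfkbia passed in limma at an adjusted p under 0.05, where 0.0853% of all genes passed as higher. All 10 values lay above 0, as did 48% of all genes, with a median of 0.44 for these genes against -0.01 for all genes. At an unadjusted p under 0.05, 5 of the 10 were higher, against 2.47% of all genes: Nfkbia, Birc3, Nfkbid, Relb and Tnfaip3. The same 5 were higher in light zone cells in 7 of 7 pairs of arrays of the same affinity and experiment, as were 2.06% of all genes. The pairs of experiment B rest on reading its differently written light zone and dark zone codes as the same experiment. The 10 genes were chosen with earlier results of these data known, so these shares are a description. In no alternative processing of this comparison did any of the 10 fall below 0. Since the labels do not say whether samples came from separate mice, a p-value here reflects the spread among arrays, which may be technical.

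**Figure D1:**
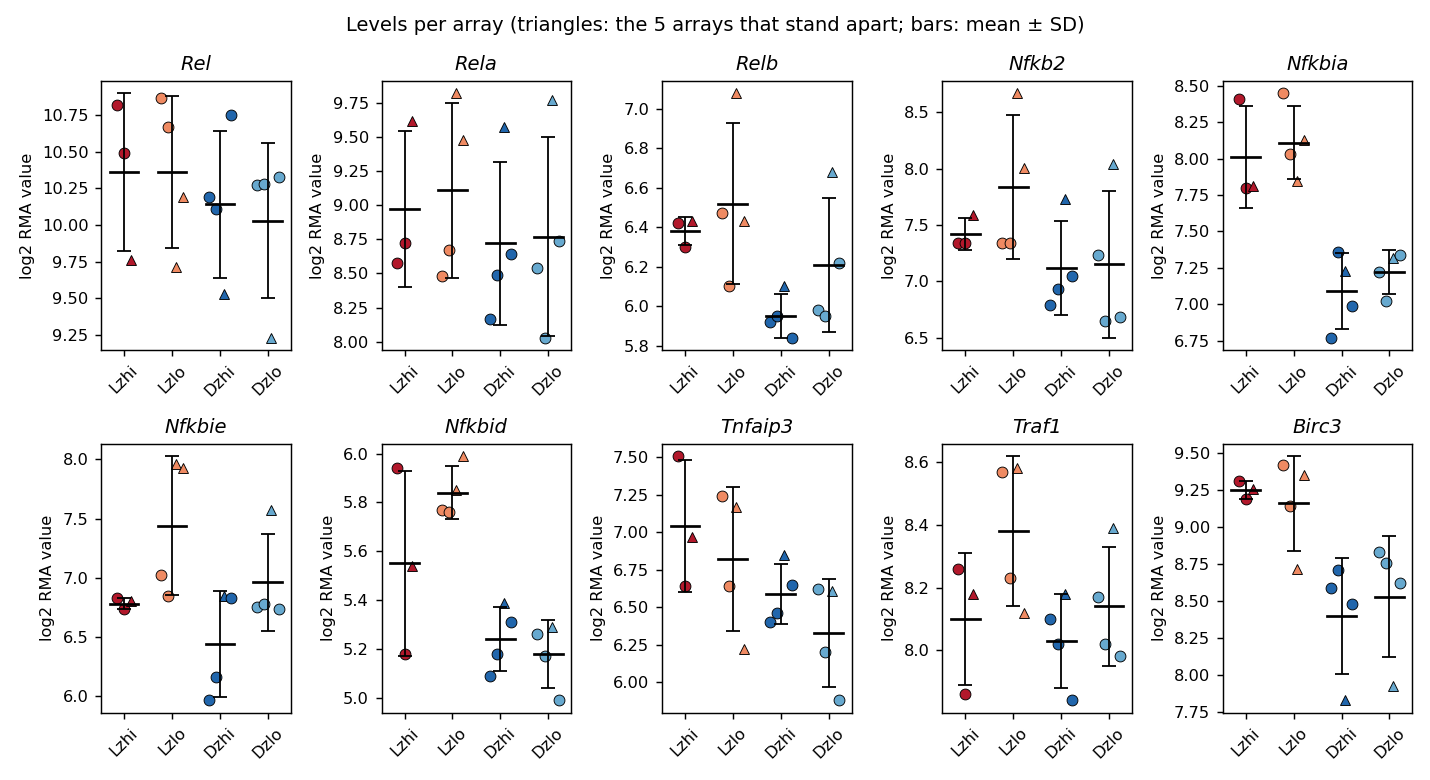
Level of each gene on each array (log2 RMA value, vertical axis) in Lzhi, Lzlo, Dzhi and Dzlo cells, with the mean and SD as bars; triangles mark the 5 arrays that stand apart. Nfkbia is the gene whose light zone arrays, 7.80 and above, all sit over its dark zone arrays, 7.36 and below, while the triangles of Rela lie above its circles in each group.

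Nfkbia encodes IkappaB alpha, the inhibitor that is destroyed and remade most rapidly after a signal. Its level, in the order of experiments A to D used throughout, was 8.41, 7.80 and 7.81 in Lzhi arrays and 8.45, 8.03, 8.13 and 7.85 in Lzlo arrays. In the dark zone it was 6.77, 7.36, 7.23 and 6.99 in Dzhi arrays and 7.22, 7.02, 7.34 and 7.32 in Dzlo arrays. The lowest light zone array stood above the highest dark zone array, a separation seen in 0.0802% of all genes. Nfkbia rose by 0.91 ± 0.13 (SE), a 1.87-fold difference, with an adjusted p of 0.01 in limma. Within experiments, its 7 pairs differed by 0.44 to 1.64. With the experiment code as a block the difference was 0.89 (adjusted p = 0.0171), a fit in which 0.251% of all genes were higher, and without the 5 arrays that stand apart it was 1.06 (adjusted p = 0.0393). The call was lost with the codes kept as written, which parts the zones of experiment B (0.95, adjusted p = 0.0675).

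Nfkbid encodes IkappaBNS, a nuclear IkappaB protein that is induced by NF-kappaB and works on its target genes rather than holding dimers in the cytoplasm. It had levels of 5.94, 5.18 and 5.54 in Lzhi arrays and 5.77, 5.76, 5.99 and 5.85 in Lzlo arrays. Dark zone levels were 5.09, 5.18, 5.39 and 5.31 in Dzhi arrays and 5.26, 5.17, 4.99 and 5.29 in Dzlo arrays. Apart from the Lzhi array of experiment B, the other 6 light zone arrays were above the highest dark zone array, and the pair with that array differed by 0.00 after rounding. The difference was 0.49 ± 0.11, or 1.4-fold, and missed the threshold (adjusted p = 0.133 in limma). Its dark zone levels, at most 5.39, lay below the array medians of 5.57 to 5.74, and RMA compresses differences of dim probe sets. It passed in only 1 of 28 alternatives, the fit without Lzhi replicate 2, the low array just named (0.58, adjusted p = 0.0437). In that fit 18 of the 19938 genes passed in either direction. Nfkbid did not pass without the 5 arrays that stand apart (0.50, adjusted p = 0.33).

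IkappaB epsilon, the product of Nfkbie, binds Rel and Rela dimers in the cytoplasm. Nfkbie levels were 6.83, 6.73 and 6.80 in Lzhi arrays and 7.02, 6.84, 7.93 and 7.96 in Lzlo arrays. They were 5.96, 6.16, 6.84 and 6.83 in Dzhi arrays and 6.75, 6.78, 6.73 and 7.57 in Dzlo arrays. The 3 highest values belonged to arrays that stand apart, all of low affinity, and the zones overlapped. The zone difference was 0.41 ± 0.21 and did not pass (adjusted p = 1 in limma), and it was 0.32 without the arrays that stand apart.

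Birc3 encodes cIAP2, a ubiquitin ligase that binds TRAF proteins and blocks cell death signals from receptors of the TNF family. It reached 9.31, 9.19 and 9.26 in Lzhi arrays and 9.42, 9.14, 9.35 and 8.72 in Lzlo arrays. In Dzhi arrays it was 8.59, 8.71, 7.83 and 8.48, and in Dzlo arrays 8.83, 8.76, 8.62 and 7.93. Only the Lzlo array of experiment D, at 8.72, lay within the dark zone range. The difference of 0.74 ± 0.17, or 1.67-fold, did not pass (adjusted p = 0.149 in limma). The 2 lowest values were dark zone arrays that stand apart. It passed in only 2 of 29 alternatives. These were the fit without the 5 arrays that stand apart (0.60, adjusted p = 0.0481) and that with the title number as a block (0.65, adjusted p = 0.00426). The shares of all genes that passed as higher in those fits were 0.176% and 0.281%. Birc3 did not pass with the experiment code as a block (0.68, adjusted p = 0.0823) or the codes kept as written (0.78, adjusted p = 0.167).

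Tnfaip3 encodes A20, an enzyme that edits ubiquitin chains on signalling proteins and so ends the activation of NF-kappaB. It measured 7.51, 6.64 and 6.97 in Lzhi arrays and 7.24, 6.64, 6.22 and 7.17 in Lzlo arrays, against 6.40, 6.46, 6.85 and 6.65 in Dzhi arrays and 6.62, 6.20, 5.88 and 6.61 in Dzlo arrays. The zones overlapped, with 4 of the 7 light zone arrays above the highest dark zone array. The difference of 0.47 ± 0.18 did not pass (adjusted p = 0.892 in limma). It was 0.64 without the arrays that stand apart (adjusted p = 0.413). Traf1, an adaptor of TNF receptors that binds the Birc3 product, varied little: 8.26, 7.86 and 8.18 in Lzhi arrays, 8.57, 8.23, 8.12 and 8.58 in Lzlo arrays, 8.10, 8.02, 8.18 and 7.84 in Dzhi arrays and 8.17, 8.02, 7.98 and 8.39 in Dzlo arrays. Its difference, 0.15 ± 0.11, was the smallest of the 10, and it was 0.21 without the arrays that stand apart.

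Among the subunits, Rel and Rela encode the proteins with activation domains that work in the canonical pathway. Rel had 10.82, 10.49 and 9.76 in Lzhi arrays and 10.87, 10.67, 10.19 and 9.71 in Lzlo arrays, against 10.19, 10.11, 9.53 and 10.75 in Dzhi arrays and 10.27, 10.28, 10.33 and 9.23 in Dzlo arrays. Rela had 8.58, 8.72 and 9.62 in Lzhi arrays and 8.48, 8.67, 9.48 and 9.82 in Lzlo arrays, against 8.17, 8.49, 9.57 and 8.64 in Dzhi arrays and 8.54, 8.03, 8.74 and 9.77 in Dzlo arrays. In both genes the spread between arrays of a group exceeded the zone difference, which was 0.27 ± 0.25 for Rel and 0.30 ± 0.30 for Rela. Neither passed (adjusted p = 1 for each in limma). Single arrays moved both values: Rel was 0.14 without Dzlo replicate 3, 0.16 without Lzhi replicate 1, 0.17 without Dzhi replicate 3 and 0.42 without Lzhi replicate 4. Rela was 0.14 without Lzhi replicate 4, 0.18 without Dzlo replicate 2 or Lzlo replicate 3 and 0.47 without Dzlo replicate 3.

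Relb and Nfkb2 encode the partners of the non-canonical pathway, in which the Nfkb2 precursor is cut to the p52 subunit that pairs with the Relb protein. Relb was at 6.42, 6.30 and 6.43 in Lzhi arrays and 6.47, 6.10, 6.43 and 7.08 in Lzlo arrays, and at 5.92, 5.95, 6.10 and 5.84 in Dzhi arrays and 5.98, 5.95, 6.22 and 6.68 in Dzlo arrays. Nfkb2 was at 7.34, 7.34 and 7.59 in Lzhi arrays and 7.34, 7.34, 8.01 and 8.67 in Lzlo arrays, and at 6.79, 6.93, 7.73 and 7.05 in Dzhi arrays and 7.23, 6.65, 6.68 and 8.04 in Dzlo arrays. In each gene the highest dark zone array, the Dzlo array of experiment D, lay above all but 1 of the light zone arrays. Relb differed by 0.37 ± 0.14 (adjusted p = 0.855 in limma) and Nfkb2 by 0.50 ± 0.25 (adjusted p = 1), so neither passed, although Relb was higher in each of its 7 pairs.

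**Figure D2:**
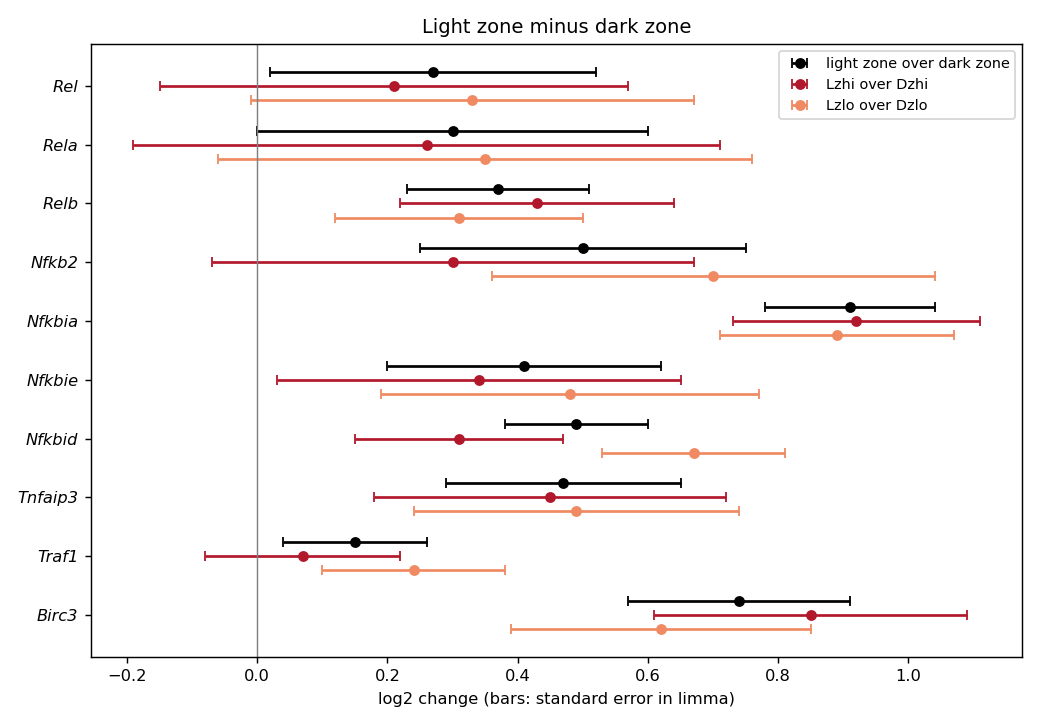
Light zone minus dark zone on the log2 scale (horizontal axis) for each gene, over both affinities (black) and within high (dark red) and low affinity (orange); bars are standard errors in limma. All points lie above 0, from 0.07 for Traf1 in high-affinity cells to 0.92 for Nfkbia in high-affinity cells.

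Zone differences were then taken within each affinity. In high-affinity cells (Lzhi over Dzhi) none of the 10 passed in limma, where 0.015% of all genes passed. At an unadjusted p under 0.05, 2 were higher, Nfkbia and Birc3, against 2.8% of all genes past that limit in either direction. Nfkbia differed by 0.92 ± 0.19 (adjusted p = 0.35) and Birc3 by 0.85 ± 0.24 (adjusted p = 0.999), and the median of the 10 was 0.33. In low-affinity cells (Lzlo over Dzlo) none passed either, against 0.01% of all genes. There, Nfkbia, Nfkbid and Birc3 had an unadjusted p under 0.05, against 3.53% of all genes. Nfkbia differed by 0.89 ± 0.18 (adjusted p = 0.163), Nfkbid by 0.67 ± 0.14 (adjusted p = 0.27) and Birc3 by 0.62 ± 0.23, with a median of 0.48 over the 10. Nfkbia in low-affinity cells passed with the arrays normalized again by quantiles (0.88, adjusted p = 0.0248), where 0.0552% of all genes passed. Without the arrays that stand apart none of the 10 passed within either affinity, and Nfkbia differed by 1.06 in high-affinity and 1.05 in low-affinity cells, Birc3 by 0.66 and 0.54.

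**Figure D3:**
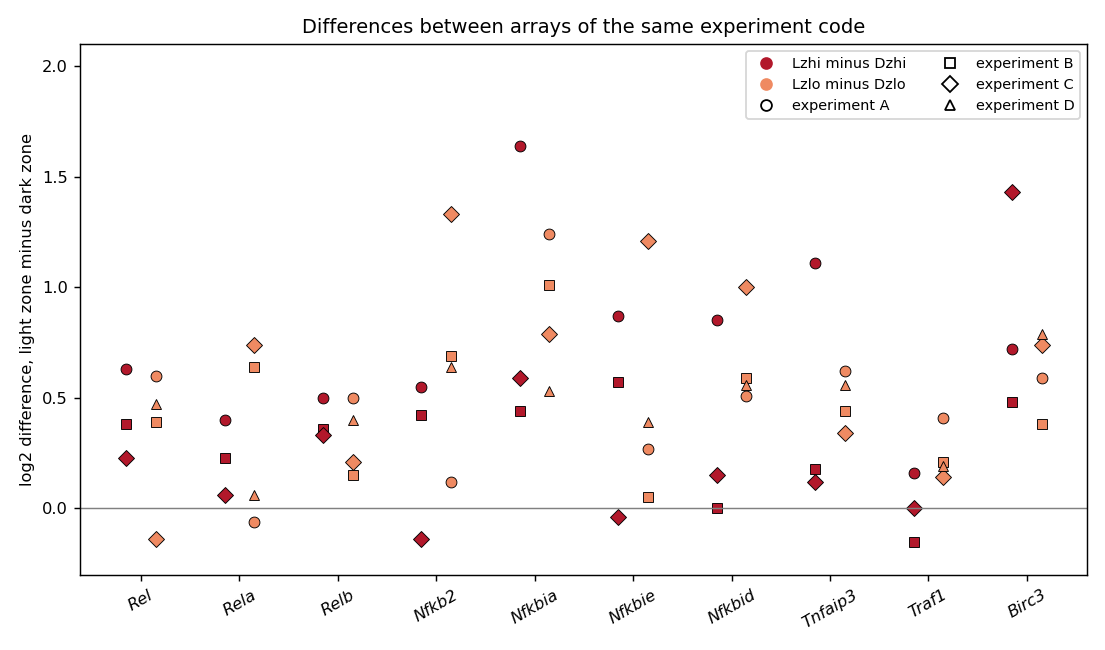
Light zone array minus dark zone array of the same affinity and experiment (log2 difference, vertical axis) for each gene; colours give the affinity and symbols the experiment. Nfkbia and Birc3 lie at or above 0.38 in all 7 pairs, while Rel, Rela, Nfkb2 and Nfkbie have 1 pair below 0 and Traf1 reaches -0.15. The code of experiment B is written differently in the light zone and the dark zone.

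The pairs show which experiments carried each difference. For Nfkbia, experiment A gave 1.64 in high-affinity and 1.24 in low-affinity cells, more than any of its other pairs. Birc3 differed by 1.43 in the high-affinity pair of experiment C, where the Dzhi array stands apart at 7.83, and by 0.38 to 0.79 in the others. Tnfaip3 differed by 1.11 in the high-affinity pair of experiment A and by 0.12 to 0.62 elsewhere. Nfkb2 and Nfkbie had their largest pair difference in low-affinity cells of experiment C, at 1.33 and 1.21. In both genes the high-affinity pair of that experiment was below 0, at -0.14 for Nfkb2 and -0.04 for Nfkbie. Relb differed by 0.15 to 0.50 over its pairs, the narrowest range among the 5 genes higher in all 7.

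Affinity was compared within each zone. In the light zone (Lzhi over Lzlo) none of the 10 passed in limma and none had an unadjusted p under 0.05, where 0% of all genes passed and 4% had such a p. Values ran between -0.65 ± 0.31 for Nfkbie and 0.22 ± 0.27 for Tnfaip3, with a median of -0.14, and 8 of the 10 were below 0, as were 50.1% of all genes. In the dark zone (Dzhi over Dzlo) none passed in limma and none had an unadjusted p under 0.05, against 0% and 1.6% of all genes. There Nfkbie differed by -0.51 ± 0.29 and Tnfaip3 by 0.26 ± 0.25, the median was -0.08, and 7 of the 10 were below 0, against 49.6% of all genes. For Nfkbia the light zone value was -0.11 ± 0.19 and the dark zone value -0.13 ± 0.18. With single arrays left out, Nfkbie ran between -0.85 and -0.48 among light zone cells and between -0.64 and -0.31 among dark zone cells. Tnfaip3 ran between -0.01 and 0.42 and between 0.11 and 0.36 in the same order, and Nfkbia between -0.31 and 0.01 and between -0.23 and -0.03.

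Over both zones, high over low affinity, again none of the 10 passed in limma (0% of all genes did), and 1 had an unadjusted p under 0.05, against 4.3% of all genes. That gene was Nfkbie, at -0.58 ± 0.21 (adjusted p = 0.999 in limma). Its pairs of the same zone and experiment differed by -0.19, -0.11 and -1.13 between light zone arrays (experiments A to C) and by -0.79, -0.63, 0.11 and -0.74 between dark zone arrays (A to D). It was thus lower at high affinity in 6 of 7 pairs. None of the 10 genes was lower in all 7 pairs, as 0.898% of all genes were. Without the arrays that stand apart Nfkbie differed by -0.15 within the light zone, -0.44 within the dark zone and -0.30 over both. With the Lzlo and Dzlo arrays of experiment D left out, in which the neutrophil markers were highest, it was -0.48, -0.31 and -0.39 for the same comparisons. That fit kept the Lzlo array of experiment C, with Nfkbie at 7.93 and a mean of 6.35 for the T cell markers. The part of such cells in the Nfkbie values was not tested.

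**Figure D4:**
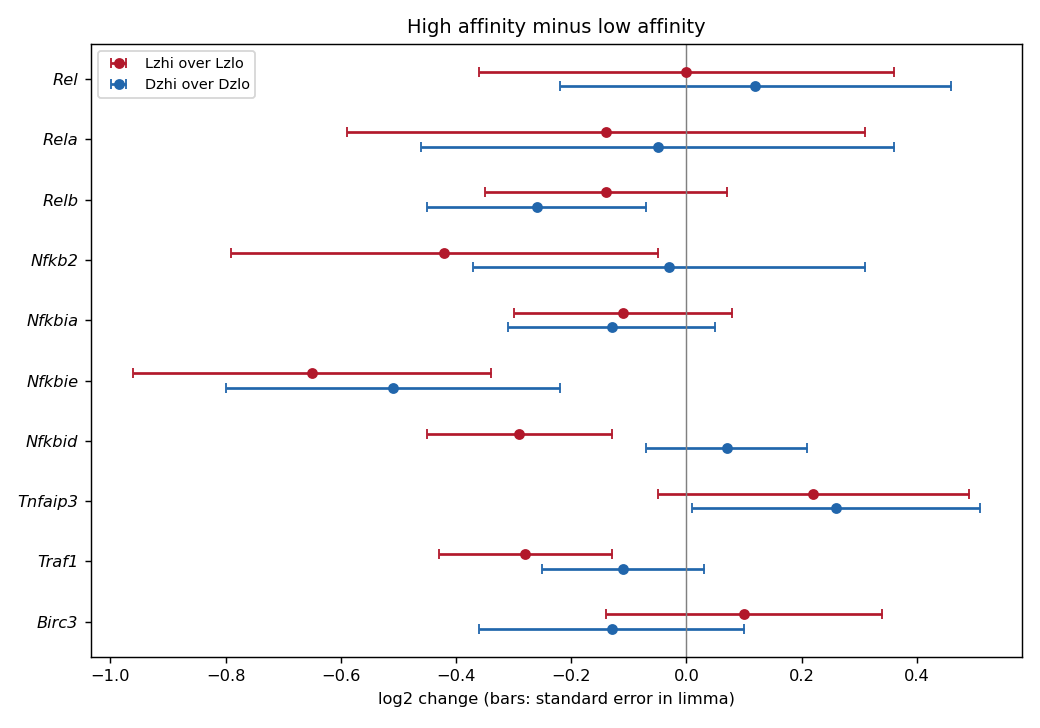
High affinity minus low affinity on the log2 scale (horizontal axis) for each gene in the light zone (red) and the dark zone (blue); bars are standard errors in limma. Nfkbie lies lowest in both zones, at -0.65 and -0.51, and Tnfaip3 highest, at 0.22 and 0.26.

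Whether the zone difference depended on affinity was tested as an interaction. None of the 10 passed in limma, where 0% of all genes passed, and none had an unadjusted p under 0.05, against 1.33% of all genes. The values ran between -0.39 ± 0.50 for Nfkb2 and 0.23 ± 0.33 for Birc3. Without the arrays that stand apart they were -0.07 for Nfkb2 and 0.11 for Birc3. With single arrays left out, Nfkb2 ran between -0.69 (without Dzlo replicate 3) and -0.12 (without Lzlo replicate 3) and Birc3 between 0.04 (without Dzhi replicate 3) and 0.43 (without Dzlo replicate 3). With standard errors of this size, a zone difference that varied with affinity could go undetected, even where it varied by more than the errors given.

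How the genes varied among arrays of a group differed between them. Rela was at 9.48 to 9.82 in the 5 arrays that stand apart and at 8.03 to 8.74 in the other 10, with no overlap. Nfkb2 showed the same order, 7.59 to 8.67 against 6.65 to 7.34. Rel went the other way with a small overlap, at 9.23 to 10.19 in the arrays that stand apart and 10.11 to 10.87 in the others. For Nfkbia the first range, 7.23 to 8.13, lay within the second, 6.77 to 8.45. Over the 15 arrays, the Pearson correlation of the level with the first component score was 0.91 for Rela, 0.79 for Nfkb2, 0.72 for Relb and -0.84 for Rel, against 0.00 for Nfkbia, 0.08 for Tnfaip3 and 0.20 for Nfkbid. By level, these 4 subunit genes were the ones past 0.7 in size, as were 16.4% of all genes. After removal of group means, Birc3 (-0.77) and Nfkbie (0.71) were past 0.7 in size as well, so this was not limited to subunits. The values were then 0.93 for Rela, 0.86 for Nfkb2, 0.84 for Relb and -0.93 for Rel. Those of the remaining genes lay between -0.27 for Nfkbia and 0.43 for Traf1. The share of all genes was not taken for these values. The score is made from all genes of the same arrays, these included, so the correlations are a description.

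**Figure D5:**
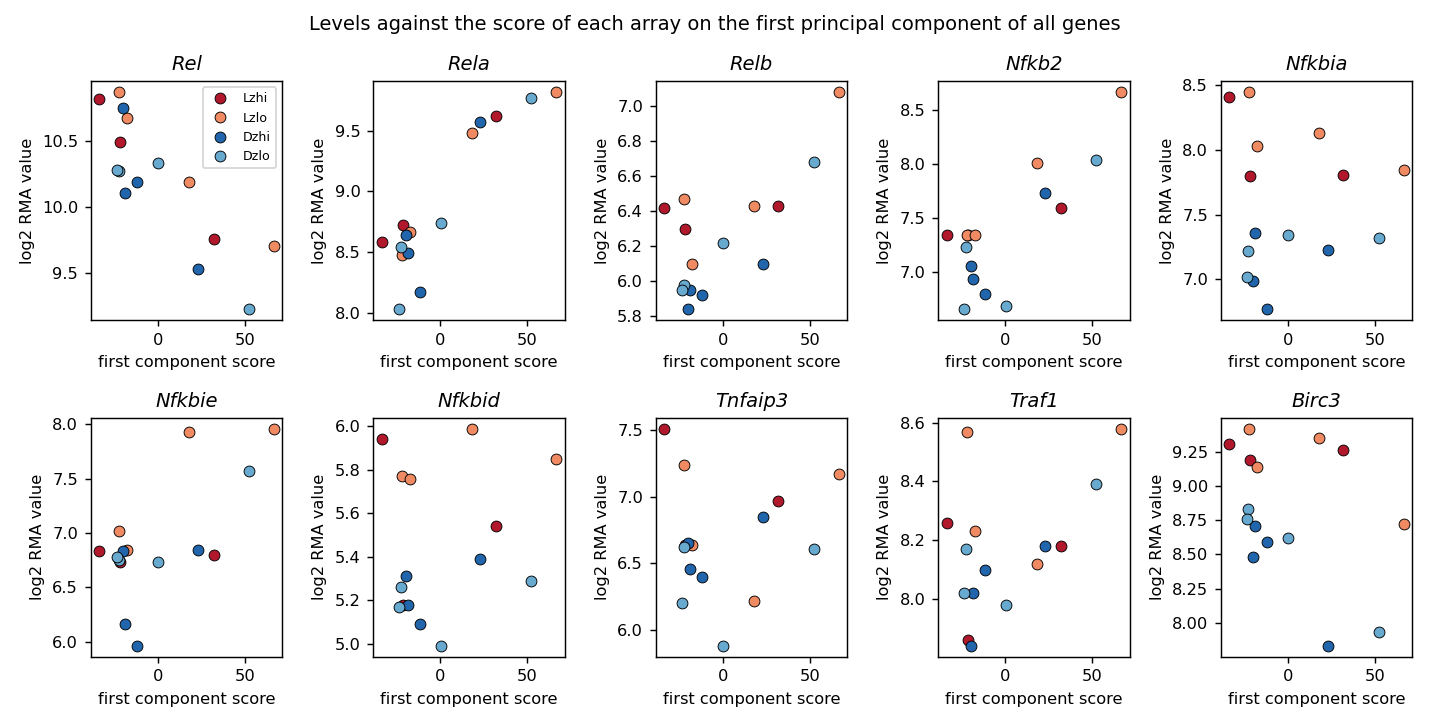
Level of each gene (log2 RMA value, vertical axis) against the score of each array on the first principal component of all genes (horizontal axis), coloured by group. Rela and Nfkb2 are higher in the arrays with scores of 18.1 and above, Rel is lower in them but for a small overlap, and Nfkbia separates by zone at every score.

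After removal of the group means, deviations of Rela and Nfkb2 over the 15 arrays correlated at 0.90, and those of Nfkb2 and Nfkbie at 0.85. Rel correlated at -0.87 with Rela and at 0.73 with Birc3. Tnfaip3 and Traf1 formed another pair, at 0.83, and Nfkbia and Nfkbid correlated at 0.46. Arrays of an experiment share their code, and all share 1 normalization, so no test was made of these correlations. With the arrays that stand apart left out, the zone difference was 0.18 for Rela, 0.39 for Rel, 0.46 for Nfkb2 and 0.35 for Relb, each within 1 standard error of its value over all arrays.

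The rest of the pathway was read through 7 lists of 76 genes, of which 68 were measured, and the others, Nfkb1 among them, are not analysed here. The lists were chosen with earlier results of these data known, so their shares are a description and no separate support. Between zones, 2 of the 68 passed as higher and 0 as lower in limma, where 0.155% of all genes passed in either direction. At an unadjusted p under 0.05 there were 16, against 4.38% of all genes, and 47 lay above 0, with a median of 0.10 against -0.01 for all genes. The 2 were in the list of 28 measured target genes, which had a median of 0.26 and 22 members above 0. They were Cd83, a surface protein of activated B cells, and Batf, a transcription factor of the AP-1 family. Cd83 averaged 9.94 ± 0.31 in light zone arrays and 8.42 ± 0.47 in dark zone arrays (SD, n = 7 and 8), a 2.81-fold difference (adjusted p = 0.00324). Batf averaged 8.26 ± 0.37 and 7.39 ± 0.29 in the same order, or 1.88-fold (adjusted p = 0.015). The Batf call was lost without the arrays that stand apart (adjusted p = 0.0554) and with the experiment codes kept as written as a block (adjusted p = 0.0594). Irf4, a regulator of plasma cell fate, and Bcl2l1, which encodes the survival protein Bcl-xL, differed by 0.74 ± 0.17 and 0.64 ± 0.16 and did not pass (adjusted p = 0.165 and 0.217).

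Upstream, 8 of the 9 receptor genes lay above 0, with a median of 0.12. Cd40, the receptor for T cell help, averaged 8.96 ± 0.31 in light zone arrays and 8.29 ± 0.26 in dark zone arrays. Its difference of 0.65 ± 0.14 did not pass (adjusted p = 0.136 in limma) but did with the experiment code (adjusted p = 0.0376) or the title number (adjusted p = 0.0299) as a block, though not with the codes kept as written (adjusted p = 0.167). Tnfrsf13b, which encodes the BAFF and APRIL receptor TACI, differed by 0.38 ± 0.10 (adjusted p = 0.292). Of the 12 measured kinases and adaptors of the canonical arm, 5 lay above 0 and the median was -0.04. Prkcb, the protein kinase C that relays B cell receptor signals to this pathway, differed by 0.45 ± 0.12 (adjusted p = 0.315, and 0.0284 where the block was the experiment code). It did not pass with the title number (adjusted p = 0.241), the codes kept as written (adjusted p = 0.105) or the code as a random block (adjusted p = 0.088). Map3k7, the TAK1 kinase, was at -0.30 ± 0.18, but at -0.03 without the arrays that stand apart and -0.16 without Lzlo replicate 3 alone.

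The 3 other IkappaB genes lay above 0, led by Bcl3, a nuclear IkappaB protein that pairs with p50 and p52, at 0.66 ± 0.19 (adjusted p = 0.4 in limma). Nfkbiz, another nuclear member, was at 0.22 ± 0.19, at 0.06 without Lzhi replicate 1, at 0.10 without Dzhi replicate 2 and at 0.34 without the arrays that stand apart. In the non-canonical arm 3 of 4 lay above 0. The exception was the adaptor gene Traf5, at -0.40 ± 0.14 (adjusted p = 0.649), lower in light zone cells in all but 1 of 7 pairs, while Traf2 was at 0.10 ± 0.07. The 12 ubiquitin ligases and editors had a median of -0.00 and 6 members above 0. Those with the lowest p were Tnip2, which encodes a partner of A20, at 0.41 ± 0.16, and Btrc, part of the ligase that marks IkappaB proteins for destruction, at 0.43 ± 0.23 (0.62 without the arrays that stand apart). The target genes were thus the only list with a gene that passed without a block.

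As a single measure of the 10 genes, their standardised values were averaged on each array. The 8 genes most like this average over the 15 arrays, by Pearson correlation, were Cd83 (0.95), Pld4 (0.92), S1pr3 (0.92), Ift140 (0.91), Stat3 (0.91), Ubxn11 (0.91), Lat2 (0.90) and Pip4p1 (0.90). After removal of group means the correlations ran between 0.64 for S1pr3 and 0.90 for Stat3, which describes the same 15 arrays on which the genes were chosen and is no separate support. Zone differences among them ran between 0.29 ± 0.11 for the transcription factor gene Stat3 and 1.49 ± 0.18 for Cd83. The sphingosine phosphate receptor gene S1pr3 rose by 1.23 ± 0.16 (adjusted p = 0.00476 in limma), and S1pr3 and Cd83 were the only 2 of the 8 to pass.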

How the data were processed

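RNA of 15 sorted samples was amplified and hybridised, 1 sample per array. The deposited values are log2 RMA values (background correction, quantile normalization and probe summary by the authors) of 28853 probe sets, with mm8 as the build, per the submitters' processing notes. The software's version is not given in the sources used here. This method compresses differences of dim probe sets, and the number of arrays limits precision. Of the probe sets, 21789 had 1 gene in the platform annotation, 1621 had several and 5443 had none; the last 2 kinds were left out, and the probe set with the highest mean stood for a gene, which left 19938 genes.

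Limma 3.58.1 (R 4.3.3) was run on all arrays with a mean for each of the 4 groups (11 residual degrees of freedom), with Benjamini-Hochberg adjustment over all genes in each of 7 comparisons. The steps were tested on simulated data. Groups came from sample titles, and 30 alternatives were tried, of which leaving out the 5 arrays that stand apart was chosen after seeing the data. The genes and lists were chosen with earlier results of these data known. Named were the 10 genes, passing genes of a list with the 2 lowest p of its others, and the 8 genes most like the 10. Promoter sequences came from RefSeq (GRCm38.p6). Figures were drawn with matplotlib 3.10.9.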

Additional observations from a re-analysis of the deposited data

Results flagged for a closer look

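Each group of 4 arrays was searched for an array far from the other 3, by the ratio of its gap to the range, in each of the 10 genes. Of 30 groups tested, 2 had a ratio above Dixon's critical value for 4 samples, and chance gives about 1 in 20. Both were the Dzlo array of experiment D, replicate 3. Its Rel level was 9.23, against 10.27 to 10.33 in the other Dzlo arrays (ratio 0.939), and its Nfkbie level was 7.57, against 6.73 to 6.78 (ratio 0.93). The neutrophil markers averaged 8.17 in this array, and their part in these values was not tested.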

How the results depend on the processing

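Nfkbia passed the zone comparison in 28 of 29 alternatives, with differences of 0.80 to 1.06 and adjusted p of 0.00119 to 0.0675. The count of the 10 genes that passed was 2 with the title number as a replicate block (Birc3 with Nfkbia), 2 without the 5 arrays that stand apart (the same genes) and 0 with the experiment code as written as a replicate block; with single arrays left out it was 1 to 2. Over all genes, 31 passed, against 49 after quantile normalization again, 68 with array weights, whose estimate stopped before its tolerance, 90 with the experiment code as a replicate block, 83 with the title number, 78 with the code as a random block and 55 without the 5 arrays. Leaving out single arrays gave 18 to 37, with 18 without Lzhi replicate 2, 19 without Dzlo replicate 1 and 20 without Lzhi replicate 1 or Lzlo replicate 2. In low-affinity cells 1 of the 10 passed between zones after quantile normalization again, as did 0.0552% of all genes. Arrays of different groups with the same experiment code had deviations that correlated at 0.288 on average (21 pairs, 16 above 0.1), against -0.082 for different codes, and with the same title number 0.227 (15 of 21), so pairing was not taken as settled. Values that changed sign were small: for Lzhi over Dzhi, Rel was -0.02 with the title number as a replicate block, and Traf1 was -0.00 with array weights. With single arrays left out, Rel ran between -0.02 and 0.51, Rela between -0.07 and 0.54 and Traf1 between -0.01 and 0.19 there. For Lzhi over Lzlo, Tnfaip3 ran between -0.01 and 0.42 and Nfkbia between -0.31 and 0.01. The causes were not tested. Nfkbid was too dim for the fit to genes above the median mean, so it had 28 alternatives for the zone comparison. No detection calls were used, so signal over background sets no limit that could be checked.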
